A study of Cynara cardunculus with 12 samples.

Results

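Line L18 is a stable transformant of cardoon (Cynara cardunculus) cells that carries the coding sequence of the Arabidopsis transcription factor AtMYB4 behind the constitutive CaMV35S promoter, and its callus was compared here with wild type (WT) callus. The samples were chosen by their labels alone: 3 L18 and 3 WT libraries, 6 of the 12 in the series, over 20024 genes tested of 26505 in the table. The other 6 libraries came from lines L1 and L24, which carry the same construct (3 libraries each). All cultures started from friable leaf callus of the genotype "Spagnolo" on Gamborg B5 medium with the auxin 2,4-D and the cytokinin kinetin. L18 was obtained with Agrobacterium strain EHA105, L1 and L24 with strain AGL1. The transformed lines were selected on 10 mg/L phosphinothricin with 200 mg/L cefotaxime and renewed about every 21 days, whereas WT callus was never transformed or selected and was renewed about every 30 days. No empty-vector line is named in the sources used here, and L18 is 1 transformation event, so the transgene cannot be told apart from transformation, selection and time in culture. Each group had 3 RNA extractions, and the sources used here do not say whether these came from separate cultures, so p-values measure only the spread between these samples, which may be technical. The transgene is not a feature of the cardoon table and was not analysed here.

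MYB4 belongs to the R2R3-type MYB proteins and is known in Arabidopsis as a repressor of phenylpropanoid genes, with cinnamate 4-hydroxylase as its best described target. The phenylpropanoid pathway turns phenylalanine into cinnamic and coumaric acids and their CoA esters, from which plants make lignin monomers, chlorogenic acid and flavonoids. Lignin is then polymerised in the wall by peroxidases and laccases, and cardoon and artichoke are known for their content of caffeoylquinic acids.

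Total counts were 14903994 to 16543902 in L18 callus and 13807280 to 15515203 in WT callus. Normalized counts are counts divided by library size with the TMM factor (trimmed mean of M-values) and rescaled to the mean library. A gene was called where edgeR's quasi-likelihood F test gave an adjusted p of 0.05 or less (Benjamini-Hochberg over all 20024 genes). Fold changes are log2 of L18 over WT with their standard errors (SE). The 2 reference genes of the study for quantitative PCR did not pass the test: Ccrd_012208 (ELF1a) had a log2 fold change of -0.06 ± 0.20 (SE, adjusted p = 0.868) and Ccrd_013113 (ACT7-like) one of 0.19 ± 0.20 (SE, adjusted p = 0.554).

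L18 and WT callus differed at many genes: 5071 were called (25.3% of those tested), of which 2504 were higher in L18 (12.5%) and 2567 lower (12.8%). The replicates did not overlap at 7981 genes (39.9%), and 4936 of the called genes were among them. Among called genes the median size of the log2 fold change was 1.04. A log2 fold change above 1 was reached by 1428 genes and one below -1 by 1229, while 223 genes lay above 4 and 127 below -4. Over all genes tested the median log2 fold change was 0.01. Distances between libraries (Euclidean, over log2 of normalized counts + 1) were 153.9 to 166.1 between L18 and WT, 77.7 to 103.7 among L18 libraries and 65.0 to 91.3 among WT libraries.

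**Figure D1:**
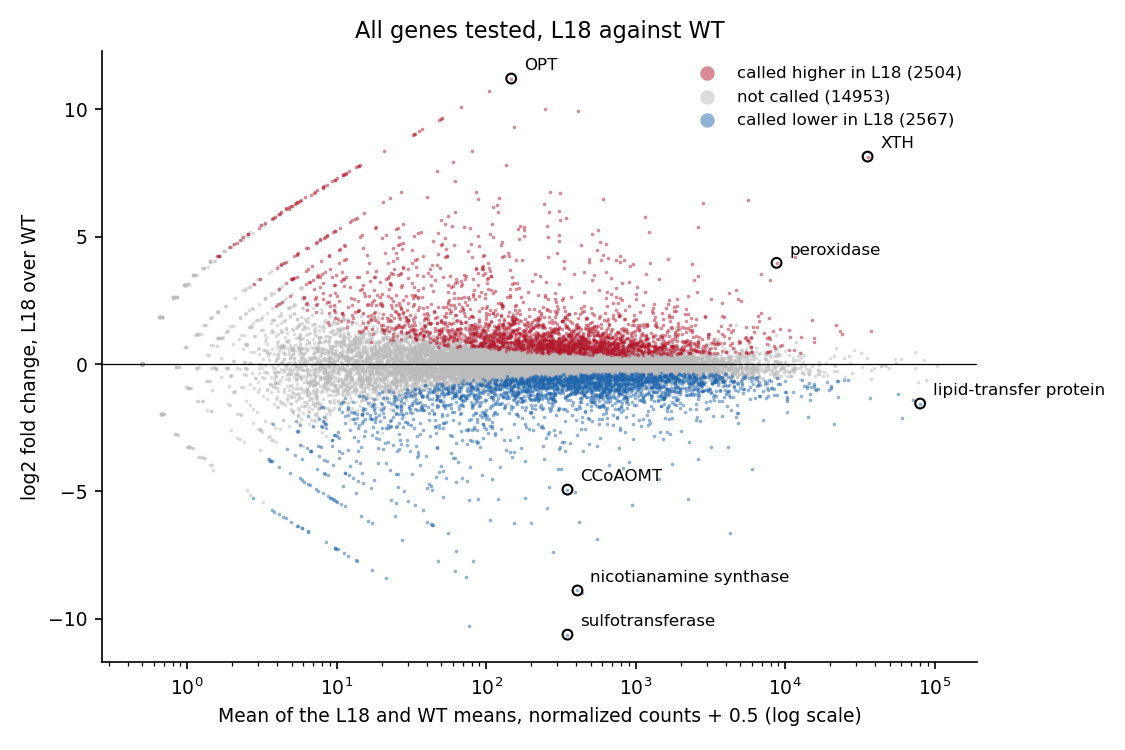
Log2 fold change of L18 over WT (vertical axis) against the mean of the L18 and WT means (horizontal axis, normalized counts + 0.5, log scale) for the 20024 genes tested. Red points are the 2504 genes called higher in L18, blue points the 2567 called lower and grey points the 14953 not called, and the circled genes are named in the text.

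Gene descriptions were read from the study's lists of genes called in L1 against the same WT libraries. They cover 2337 of the genes tested, of which 1136 were called in L18, so a family's share of called members has to be read against 1136 of 2337 (48.6%, with 24.7% called higher and 23.9% lower) and not against 25.3%. The families below therefore hold only genes that had already moved in L1, and their counts describe L18 without adding independent evidence.

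Each enzyme examined at the entry steps of phenylpropanoid metabolism had a gene called lower in L18 callus, though not all genes of each enzyme were. Both described genes of phenylalanine ammonia-lyase (PAL), the first enzyme of the pathway, fell, as did the gene that the study names as cinnamate 4-hydroxylase (C4H), 5 of the 12 described genes of 4-coumarate-CoA ligase (4CL), the gene named as hydroxycinnamoyl transferase (HCT) and 3 of the 4 described genes of caffeoyl-CoA O-methyltransferase (CCoAOMT). The C4H and HCT genes, 4CL gene Ccrd_015556 and CCoAOMT gene Ccrd_004659 are core genes of the study. Core genes were called in every transformed line on these same libraries, so the direction of these genes was fixed by that choice. None of the described PAL, 4CL or CCoAOMT genes was called higher. The remaining 7 4CL genes and the fourth CCoAOMT gene did not pass the test, with log2 fold changes of -1.42 to 0.51 and of -0.19.

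Ccrd_007512, the PAL gene with the larger count, had 11483, 12405 and 8271 normalized counts in L18 callus, against 21575, 21529 and 19918 in WT callus. All L18 replicates lay below all WT replicates, with a log2 fold change of -0.97 ± 0.23 (SE, adjusted p = 0.00624). Ccrd_014855, the second PAL gene, had 148, 190.4 and 94.6 normalized counts in L18 callus, against 1626, 1232 and 1385 in WT callus. The fall was steeper there (-3.29 ± 0.30, adjusted p = 4.80e-06), and again the groups did not overlap.

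C4H is the cytochrome P450 that hydroxylates cinnamic acid. Ccrd_010165 (scaffold 3042, positions 39949 to 42193, plus strand, 3 exons, build CcrdV1) had 5623, 6089 and 4717 normalized counts in L18 callus, against 25051, 21298 and 22340 in WT callus. The log2 fold change was -2.06 ± 0.19 (SE, adjusted p = 4.94e-06), and the highest L18 replicate was below the lowest WT replicate. Its neighbours in identifier order also lay lower in L18, with a median log2 fold change of -0.36, a pattern described further on.

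4CL joins hydroxycinnamic acids to coenzyme A. Ccrd_018719 had 870.3, 759.4 and 709.7 normalized counts in L18 callus, against 5991, 7616 and 8831 in WT callus (log2 fold change -3.26 ± 0.24, adjusted p = 5.26e-07). Ccrd_015556 had 681, 756.2 and 534.7 normalized counts in L18 callus, against 2730, 2786 and 2940 in WT callus (-2.10 ± 0.18, adjusted p = 2.74e-06). Ccrd_018690, at low counts, had 6.28, 3.16 and 7.57 normalized counts in L18 callus, against 107.9, 58.2 and 115.5 in WT callus (16.0-fold lower, adjusted p = 4.67e-05). In all of these the L18 and WT replicates were fully apart. The same held for Ccrd_022733, named after its values were seen, with 288, 501.7 and 247 normalized counts in L18 callus, against 2756, 2674 and 2618 in WT callus (-2.96 ± 0.22, adjusted p = 6.55e-07). The fifth called 4CL gene, Ccrd_007113, moved least (-0.65 ± 0.21, adjusted p = 0.0322), and leaving out WT replicate 2 (adjusted p = 0.0978) or 3 (0.104), or L18 replicate 1 (0.144) or 3 (0.0666), ended its call. Ccrd_004369, also described as 4CL, did not pass the test (0.28 ± 0.16, adjusted p = 0.227).

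HCT moves the coumaroyl group to shikimate or quinate and leads to both lignin and chlorogenic acid. Ccrd_015561 (scaffold 845, positions 71956 to 73882, plus strand, 2 exons), whose description is a chloramphenicol acetyltransferase-like domain, had 204.6, 268.2 and 177 normalized counts in L18 callus, against 3387, 3062 and 3485 in WT callus. This is a 15.3-fold lower fitted level (log2 fold change -3.94 ± 0.28, adjusted p = 4.77e-07), and the highest L18 replicate stayed far below the lowest WT replicate.

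CCoAOMT methylates caffeoyl-CoA on the way to feruloyl units. Ccrd_019031, which took the most counts of the family, had 6108, 8900 and 5795 normalized counts in L18 callus, against 37534, 33841 and 35225 in WT callus (log2 fold change -2.36 ± 0.20, adjusted p = 2.41e-06). Ccrd_004659 (scaffold 2668, positions 74592 to 77315, plus strand, 5 exons) had 23.3, 24.2 and 18.9 normalized counts in L18 callus, against 679.4, 620.4 and 731.7 in WT callus (-4.93 ± 0.44, adjusted p = 3.39e-06). Ccrd_012615 had 289.8, 219.8 and 214.8 normalized counts in L18 callus, against 729.7, 704.2 and 852.6 in WT callus (-1.66 ± 0.21, adjusted p = 5.84e-05). No replicate of one group entered the range of the other at any of these genes. Summed over the 4 described members, L18 callus had 6057 to 9188 normalized counts and WT callus 35217 to 38973.

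**Figure D2:**
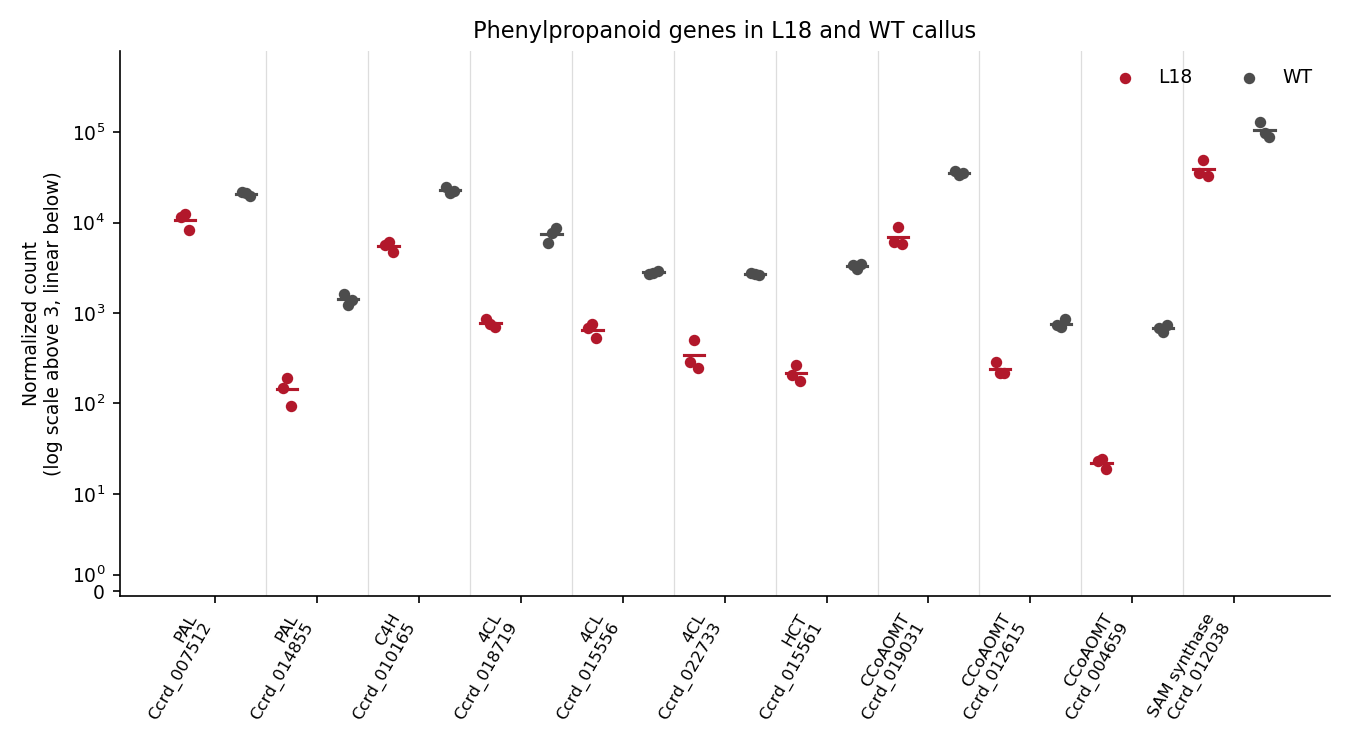
Normalized counts (log scale above 3) of 11 genes of the phenylpropanoid pathway and of methyl donor supply, with each point a replicate and each bar the mean of 3. The 11 genes were picked from those called lower in L18, so red L18 points below grey WT points were largely built into the choice. At Ccrd_004659 the counts were 18.9 to 24.2 in L18 and 620.4 to 731.7 in WT. At Ccrd_007512 they were 8271 to 12405 in L18 and 19918 to 21575 in WT. Genes of the same enzymes that were not called are left out. Among them, Ccrd_004369 had 739.4 to 1004.9 in L18 and 683.1 to 778.8 in WT.

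Named genes of pathways that feed phenylpropanoids were lower in L18 callus, most of them picked with that direction known. S-adenosylmethionine (SAM) synthase makes the methyl donor that CCoAOMT uses, and its gene Ccrd_012038 had 35193, 49498 and 33027 normalized counts in L18 callus, against 128422, 97173 and 88941 in WT callus (log2 fold change -1.42 ± 0.22, adjusted p = 4.09e-04). The shikimate pathway makes chorismate, the precursor of phenylalanine. From the study's core genes, a list chosen on these same libraries, all 4 genes of chorismate biosynthesis and all 9 of aromatic amino acid biosynthesis were called lower, a direction that membership of the list had fixed, with median log2 fold changes of -1.17 and -0.91. The 4 genes that follow, and chorismate mutase, were named after their values were seen. Ccrd_022051, a DAHP synthase (phospho-2-dehydro-3-deoxyheptonate aldolase, the entry enzyme), had 3885, 3591 and 2174 normalized counts in L18 callus, against 5812, 5981 and 6015 in WT callus (-0.88 ± 0.19, adjusted p = 0.00361). Ccrd_001687, a shikimate kinase, had 185.7, 221.9 and 160.9 normalized counts in L18 callus, against 435.4, 496.1 and 508.1 in WT callus (-1.34 ± 0.19, adjusted p = 1.90e-04). The next enzyme, EPSP synthase (3-phosphoshikimate 1-carboxyvinyltransferase, the target of glyphosate), showed a larger fall. Ccrd_008822, which encodes it, had 1089, 1165 and 916 normalized counts in L18 callus, against 3751, 3512 and 3377 in WT callus (-1.75 ± 0.17, adjusted p = 7.26e-06). Its neighbours in identifier order had a median log2 fold change of -0.31. Beyond the neighbours' median the difference was -1.43, beside -1.41 at the shikimate kinase gene. Ccrd_007281, an arogenate dehydratase of the last steps to phenylalanine, had 761.8, 924.5 and 459.9 normalized counts in L18 callus, against 2503, 2162 and 1991 in WT callus (-1.63 ± 0.27, adjusted p = 5.67e-04). Chorismate mutase (Ccrd_012528) fell less, by 0.78 on the log2 scale (SE 0.18, adjusted p = 0.00581). At these 5 genes the L18 replicates were all below the WT replicates.

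The enzymes of wall polymerisation were mixed. Peroxidases, which oxidise monolignols and many other substrates, had 13 of 34 described members called higher and 5 lower, with a median log2 fold change of 0.77, and their summed level was 48145 to 56760 normalized counts in L18 callus and 13495 to 15132 in WT callus. Ccrd_022196 carried much of that sum, with 15303, 14930 and 19196 normalized counts in L18 callus, against 1586, 999.1 and 573.4 in WT callus (3.97 ± 0.38, adjusted p = 6.10e-06). Ccrd_024377 had 8121, 5846 and 8106 normalized counts in L18 callus, against 1390, 880.7 and 940.3 in WT callus (2.78 ± 0.23, adjusted p = 2.13e-06). At low WT counts, Ccrd_018407 had 270.1, 563.8 and 745.7 normalized counts in L18 callus, against 4.91, 0.99 and 8.56 in WT callus (6.76 ± 0.64, adjusted p = 6.29e-06). These peroxidases rose with no overlap between groups. In the other direction, Ccrd_009572, described by a peroxidase_4 domain and among the most counted genes of L18, had 24787, 22773 and 15743 normalized counts in L18 callus, against 61820, 53017 and 44918 in WT callus (-1.34 ± 0.21, adjusted p = 3.48e-04), where the median of its neighbours was -0.53.

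Laccases, copper oxidases that also polymerise monolignols, had 2 of 4 described members called lower and none higher. Ccrd_023188 had 1194, 684.7 and 627.4 normalized counts in L18 callus, against 1313, 2028 and 1975 in WT callus (log2 fold change -1.08 ± 0.27, adjusted p = 0.00907). The other call, Ccrd_026494 (-0.96 ± 0.31, adjusted p = 0.034), did not pass when WT replicate 2 (adjusted p = 0.111) or 3 (0.0968), or L18 replicate 2 (0.0813) or 3 (0.123), was left out. Ccrd_011628 and Ccrd_003100 were not called (-0.75 and 0.54, adjusted p = 0.218 and 0.199). Dirigent proteins guide the coupling of monolignols in lignan formation, and 2 of 5 described members were called lower. Ccrd_012897 had 322.1, 230.3 and 76.7 normalized counts in L18 callus, against 1090, 988.2 and 1151 in WT callus (-2.36 ± 0.39, adjusted p = 5.97e-04). Ccrd_002570 fell by 1.02 (SE 0.30, adjusted p = 0.0214), which no longer passed once WT replicate 3 (0.069) or L18 replicate 2 (0.0694) was dropped. The dirigent gene with the most counts, Ccrd_021500, had a log2 fold change of -0.47 (adjusted p = 0.273).

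Called genes that remodel the polysaccharides of the wall were mostly higher in L18. Ccrd_000418 (scaffold 20, positions 472082 to 475245, minus strand, 4 exons) encodes a xyloglucan endotransglucosylase/hydrolase (XTH), an enzyme that cuts and rejoins xyloglucan chains. It had 62120, 79530 and 71327 normalized counts in L18 callus, against 348.3, 161.7 and 249.2 in WT callus. The fitted level was 281-fold higher (log2 fold change 8.14 ± 0.41, adjusted p = 2.19e-08), which put it among the most counted genes of L18. Of the 4 described XTH genes 2 were called higher and 1 lower. The second, Ccrd_007241, had 87.0, 131.5 and 363.4 normalized counts in L18 callus, against 24.5, 42.4 and 16.1 in WT callus (2.79 ± 0.55, adjusted p = 0.00197). Ccrd_000755, described by the GH16 domain that XTHs share with other hydrolases, had 50513, 47295 and 62790 normalized counts in L18 callus, against 23297, 20497 and 21170 in WT callus (1.31 ± 0.23, adjusted p = 8.14e-04).

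All 3 pectin-acting families had more members called higher than lower. Pectinesterases, which remove methyl groups from pectin, had 8 of 15 members called higher and none lower (5 higher without WT replicate 2), pectate lyases 5 of 8 higher and none lower, and the polygalacturonase family 28 of glycoside hydrolases 5 of 6 higher and 1 lower. Ccrd_003442, a pectinesterase, had 3345, 8183 and 7598 normalized counts in L18 callus, against 1407, 1029 and 1237 in WT callus (2.38 ± 0.34, adjusted p = 1.93e-04). Ccrd_013485, a pectate lyase, had 1437, 4224 and 2151 normalized counts in L18 callus, against 431.7, 204.2 and 130.5 in WT callus (3.36 ± 0.44, adjusted p = 9.34e-05). Its relative Ccrd_012421, the pectate lyase with the most counts, had 14727, 28824 and 18924 normalized counts in L18 callus, against 13046, 10066 and 7838 in WT callus. The groups did not overlap there either, but the call (1.01 ± 0.29, adjusted p = 0.019) needed WT replicates 2 and 3 and L18 replicate 2 (adjusted p = 0.0642, 0.0779 and 0.0793 with each of them left out). Polygalacturonases hydrolyse the pectin backbone. Ccrd_022005 of family 28 had 391.2, 206.2 and 127.7 normalized counts in L18 callus, against 1.23, 3.95 and 2.14 in WT callus (6.51 ± 0.79, adjusted p = 4.84e-05). Ccrd_016016 had 746.5, 342.9 and 350.1 normalized counts in L18 callus, against 2.45, 8.88 and 6.42 in WT callus (6.27 ± 0.71, adjusted p = 2.63e-05). The 1 family 28 gene that fell, Ccrd_009377 (-0.61 ± 0.17, adjusted p = 0.0155), was not called without WT replicate 1 (0.0606) or L18 replicate 3 (0.0699), nor when fold changes were centred on neighbouring genes (-0.03, adjusted p = 0.915).

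Among cellulose- and wall-loosening families, endoglucanases had 4 of 9 members called higher and none lower, and expansins 2 of 7 higher and none lower. The expansin share (28.6%) was near the 24.7% called higher among all described genes. Ccrd_006162, an endoglucanase, had 1314, 1661 and 1512 normalized counts in L18 callus, against 104.2, 92.7 and 39.6 in WT callus (4.25 ± 0.31, adjusted p = 5.43e-07). Ccrd_000217, another, had 212.6, 324 and 192.1 normalized counts in L18 callus, against 6.13, 6.90 and 15.0 in WT callus (4.67 ± 0.37, adjusted p = 1.30e-06). Expansins loosen the wall without hydrolysis. Ccrd_011779 had 608.3, 1120 and 471.3 normalized counts in L18 callus, against 285.7, 170.6 and 68.5 in WT callus (2.07 ± 0.54, adjusted p = 0.0116). Ccrd_009630 had 3403, 9275 and 8320 normalized counts in L18 callus, against 5445, 1180 and 740.3 in WT callus. WT replicate 1 lay inside the L18 range, and the gene was not called (1.51 ± 0.60, adjusted p = 0.0827). It was called higher without WT replicate 1 (2.88, adjusted p = 0.00117), with a replicate block (2.00, 0.035), by limma in 3 settings (0.0175 to 0.0202) and when centred on neighbouring genes (2.02, 0.0302). Of the study's core genes, chosen on these libraries, all 19 of cell wall organization and all 7 of pectin catabolism were called higher, again a direction fixed by the choice, with median log2 fold changes of 1.80 and 2.01.

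All cultures grew on the same auxin. Auxin-related genes that passed the test were mostly higher in L18, and most of those were SAUR genes. SAUR genes (small auxin up RNA), short-lived transcripts of the early auxin response, had 12 of 22 described members called higher and 1 lower, with a median log2 fold change of 2.31. Most of the risen members were at low counts. Ccrd_001914 had 69.1, 14.7 and 66.2 normalized counts in L18 callus, against 3.68, 0 and 1.07 in WT callus. All 3 WT libraries held 3 counts or fewer, which puts L18 at least 15.2-fold higher (adjusted p = 4.75e-04). Ccrd_017581, named after its values were seen, had 149.8, 208.3 and 167.5 normalized counts in L18 callus, against 9.81, 17.8 and 10.7 in WT callus (3.75 ± 0.32, adjusted p = 2.36e-06). The SAUR gene with the most counts went the other way. Ccrd_000808 had 871.2, 1226 and 942.5 normalized counts in L18 callus, against 3813, 2105 and 2144 in WT callus (-1.41 ± 0.29, adjusted p = 0.00278). The summed SAUR level was 2154 to 2876 normalized counts in L18 callus and 2886 to 5560 in WT callus, so the sum and the number of risen members differed in direction.

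Auxin-responsive proteins of the Aux/IAA kind repress auxin response factors. Of 15 described members 4 were called higher and 1 lower, a share of calls (33.3%) below the 48.6% of all described genes. Ccrd_025821 had 253, 99.9 and 267.8 normalized counts in L18 callus and 0 in every WT replicate, at least 63.1-fold higher against the level of 3 counts in WT (adjusted p = 1.97e-06). Ccrd_003598 had 2598, 1306 and 3888 normalized counts in L18 callus, against 1053, 838.3 and 509.2 in WT callus (1.70 ± 0.32, adjusted p = 0.00157). Both genes were higher in every L18 replicate than in any WT replicate. Auxin efflux carriers export auxin from the cell, and 2 of 6 (33.3%) were called higher, beside 24.7% of all described genes. Ccrd_009752 had 279, 343.9 and 263.1 normalized counts in L18 callus, against 57.6, 55.2 and 32.1 in WT callus (2.61 ± 0.24, adjusted p = 5.07e-06), while the median of its neighbours was -0.53. Cytokinin dehydrogenases degrade cytokinins, and their members split: Ccrd_003971 rose (4.49 ± 0.39, adjusted p = 2.63e-06) and Ccrd_020551 fell (-1.84 ± 0.34, adjusted p = 0.00137).

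Genes of the cell cycle moved in both directions. Cyclin-dependent kinase inhibitors of the KRP kind slow the cell cycle, and both described genes were called lower. They were grouped after their values were seen. Both form the study's core list of cell cycle arrest, chosen as lower on these libraries, so their direction was fixed by the choice. Ccrd_012564 had 10.8, 7.36 and 11.4 normalized counts in L18 callus, against 41.7, 47.3 and 68.5 in WT callus (-2.40 ± 0.47, adjusted p = 0.00201). Ccrd_010818, which the study names KRP7-like, had 50.3, 69.4 and 36.9 normalized counts in L18 callus, against 123.9, 106.5 and 147.6 in WT callus. Its groups did not overlap, yet the call (-1.27 ± 0.36, adjusted p = 0.0192) needed WT replicate 3 (adjusted p = 0.0747 with it left out) and L18 replicates 1 and 3 (0.0645 and 0.0721). Ccrd_006023, which the study names AUR3 after an Aurora kinase, had 109.5, 156.7 and 145.7 normalized counts in L18 callus, against 55.2, 55.2 and 54.6 in WT callus (1.32 ± 0.24, adjusted p = 0.00108). Other mitosis genes that the study names moved less. The DNA polymerase gene Ccrd_013806 was called higher (0.61 ± 0.20, adjusted p = 0.0328). Ccrd_000826, named after HUB1, did not pass the test (0.62 ± 0.27, adjusted p = 0.109), and its groups overlapped.

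Kinesins, the motor proteins of spindle and phragmoplast, had 4 of 11 described members called higher and none lower. This share (36.4%) compares with 24.7% of all described genes called higher and 48.6% called in either direction. Ccrd_019700 had 537.4, 500.7 and 701.2 normalized counts in L18 callus, against 253.9, 322.5 and 337 in WT callus (log2 fold change 0.93 ± 0.20, adjusted p = 0.00368). Ccrd_007036 had 151.6, 130.4 and 207.2 normalized counts in L18 callus, against 50.3, 62.1 and 92.0 in WT callus (1.25 ± 0.28, adjusted p = 0.0042). Of 20 core genes of microtubule-based movement, which were chosen as higher on these libraries, 17 were called higher and none lower, with summed levels of 7520, 5763 and 11569 normalized counts in L18 callus, against 3705, 4140 and 4128 in WT callus. L18 replicate 3 stood highest in that sum, and without it 8 genes were called, against 11 without WT replicate 1 or WT replicate 2. Cyclins, the partners that activate cyclin-dependent kinases, split into 3 higher and 2 lower of 6. Ccrd_021208 had 301.5, 225.1 and 207.2 normalized counts in L18 callus, against 77.3, 65.1 and 62.0 in WT callus (1.85 ± 0.21, adjusted p = 3.30e-05). A fall was called at Ccrd_014801, an F-box and cyclin-like protein (-2.43 ± 0.39, adjusted p = 4.65e-04). Histones did not rise as a group, with 1 of 5 described genes called higher (0 with WT replicate 2 or 3 or L18 replicate 1 or 2 left out) and 3 lower. The histone H2A gene Ccrd_004945 had 321.2, 492.2 and 366.2 normalized counts in L18 callus, against 737, 760.4 and 664.3 in WT callus (-0.87 ± 0.17, adjusted p = 0.00162). In bulk RNA, fewer cells of a type and less RNA per cell cannot be told apart.

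Transcription factor families moved in both directions. AP2/ERF factors, many of them responsive to ethylene or stress, had 13 of 39 described members called higher and 3 lower. Their share of calls was 41.0%, below the 48.6% of all described genes (24.7% higher and 23.9% lower). Ccrd_016332, the AP2 gene that the study names, had 3450, 3465 and 3040 normalized counts in L18 callus, against 1246, 954.7 and 874 in WT callus (1.70 ± 0.18, adjusted p = 1.63e-05). CCT domain proteins, a family that includes CONSTANS-like factors, were grouped after their values were seen. They had 7 of 11 called higher and none lower, beside 24.7% of all described genes called higher. The count was 4 without WT replicate 2 or L18 replicate 3. Ccrd_012642 had 289.8, 387.1 and 310.4 normalized counts in L18 callus, against 27.0, 19.7 and 11.8 in WT callus (4.08 ± 0.34, adjusted p = 2.23e-06).

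NAC and WRKY factors, both known for roles in stress, defence and senescence, leaned lower. NAC had 10 of 26 called lower and 2 higher (1 higher with WT replicate 1 or 3 or L18 replicate 1 left out, and 4 with L18 replicate 2 left out). WRKY had 9 of 19 lower and 4 higher (2 higher with WT replicate 2 or L18 replicate 2 or 3 left out). The share of calls was 46.2% in NAC and 68.4% in WRKY, beside 48.6% of all described genes. Ccrd_013203, a NAC gene, had 40.4, 5.26 and 6.62 normalized counts in L18 callus, against 653.6, 420.1 and 455.7 in WT callus (-4.82 ± 0.57, adjusted p = 8.11e-05). Ccrd_010627, another NAC gene, had 323.9, 479.6 and 353 normalized counts in L18 callus, against 1871, 2335 and 1905 in WT callus (-2.40 ± 0.24, adjusted p = 8.02e-06). Both were fully apart between groups. The WRKY gene Ccrd_005774 had 0 counts in every L18 replicate and 8.59, 15.8 and 31.0 normalized counts in WT callus, at least 6.38-fold lower in L18 (adjusted p = 0.0029). Not every member fell: Ccrd_001141 had 808.4, 802.5 and 788.3 normalized counts in L18 callus, against 451.3, 553.3 and 646.1 in WT callus (0.54 ± 0.14, adjusted p = 0.0115).

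MADS-box and K-box genes encode factors best known from flower and organ identity. Of 14 described genes 6 were called lower and 4 higher, with 2 higher without WT replicate 2. Ccrd_019107, the MADS gene that the study names, had 0, 1.05 and 0.95 normalized counts in L18 callus, against 150.8, 168.6 and 166.9 in WT callus. L18 libraries held at most 1 count of it, at least 56.0-fold lower (adjusted p = 3.62e-05). Ccrd_015131, a K-box gene, had 3.59, 7.36 and 0.95 normalized counts in L18 callus, against 301.7, 316.6 and 292 in WT callus (-6.25 ± 0.52, adjusted p = 2.01e-06). Ccrd_022071, also with a K-box, moved up, with 670.2, 555.3 and 473.1 normalized counts in L18 callus, against 27.0, 33.5 and 22.5 in WT callus (4.34 ± 0.41, adjusted p = 5.39e-06).

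Endogenous MYB genes did not share a direction. Of 23 described genes 7 were called higher and 4 lower, a share of calls (47.8%) near the 48.6% of all described genes. Each of the 11 MYB genes that the study pairs with an Arabidopsis relative had been chosen on these libraries. Ccrd_018110, paired with AtMYB48, had 0.90, 0 and 0 normalized counts in L18 callus, against 116.5, 103.6 and 148.7 in WT callus, at least 42.5-fold lower (adjusted p = 7.56e-06). Ccrd_006948, paired with AtMYB79, had 11.7, 1.05 and 2.84 normalized counts in L18 callus, against 61.3, 56.2 and 74.9 in WT callus (-3.55 ± 0.66, adjusted p = 0.0013). Ccrd_007105 (paired with AtMYB5) and Ccrd_013908 (AtMYB107) also fell, by 1.26 and 1.24 on the log2 scale (adjusted p = 2.96e-04 and 0.00977). Ccrd_002014 (AtMYB15) was called lower (-1.87 ± 0.63, adjusted p = 0.0419) but not with replicate 2 or 3 of either group left out (adjusted p = 0.0636 to 0.192). Ccrd_001286 (AtMYB19) did not pass the test (-2.35 ± 0.98, adjusted p = 0.0959). Among risen genes, Ccrd_012299, paired with AtMYB36, had 113.9, 130.4 and 148.6 normalized counts in L18 callus, against 28.2, 23.7 and 16.1 in WT callus (2.53 ± 0.42, adjusted p = 6.11e-04). Ccrd_012123 (AtMYB38) had 693.6, 519.6 and 818.5 normalized counts in L18 callus, against 275.9, 305.7 and 262.1 in WT callus (1.27 ± 0.19, adjusted p = 2.60e-04). Ccrd_001632 (AtMYB62) rose by 1.91 (SE 0.35, adjusted p = 0.00117). The remaining pair, Ccrd_009207 (AtMYB14, 0.85, adjusted p = 0.0179) and Ccrd_002100 (AtMYBS2, 0.50, adjusted p = 0.0218), rose less, and each lost its call when any one of several replicates was left out (adjusted p = 0.0608 to 0.0737).

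**Figure D3:**
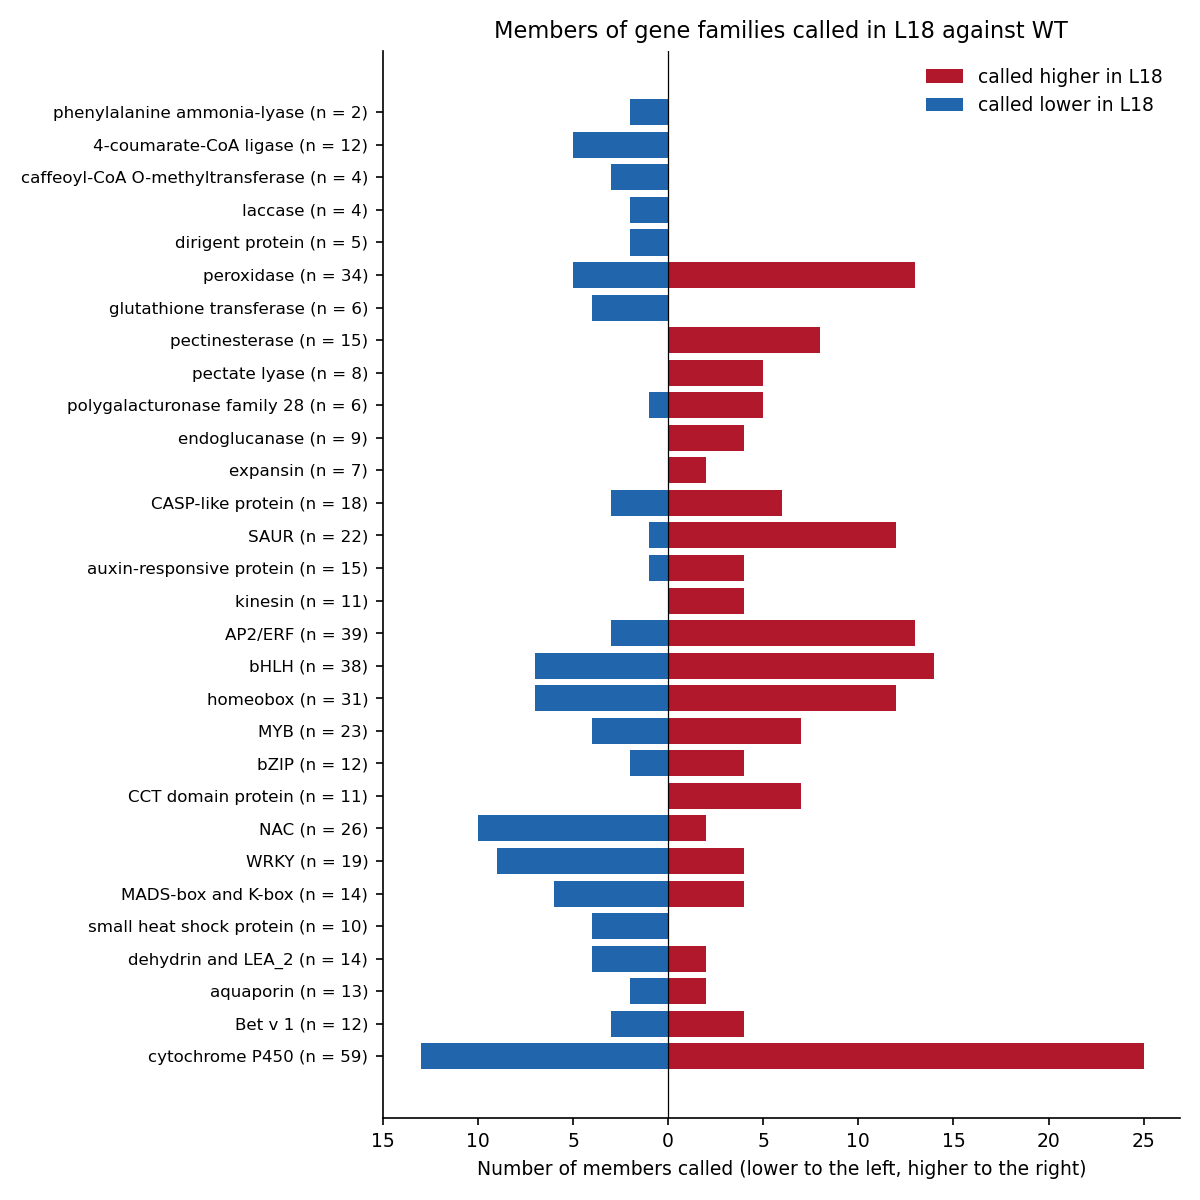
Number of described family members called higher in L18 (red bars, to the right) and lower in L18 (blue bars, to the left), with the number tested beside each name. Pectate lyases and polygalacturonases reach 5 to the right, while CCoAOMT, laccases and dirigent proteins have bars to the left only, of 3, 2 and 2.

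Secreted and defence-related proteins included some of the most counted genes of both cultures. Ccrd_018445, a non-specific lipid-transfer protein, had 45519, 41348 and 35474 normalized counts in L18 callus, against 140277, 92332 and 125409 in WT callus (log2 fold change -1.55 ± 0.20, adjusted p = 8.49e-05). The lipid-transfer proteins, which carry lipids in the wall space and were grouped after their values were seen, had 8 of 17 members called lower and 4 higher, with 5 lower without WT replicate 3. Ccrd_010897, with the knottin fold of plant defensins, had 39706, 23119 and 41942 normalized counts in L18 callus, against 62956, 85362 and 88217 in WT callus (-1.17 ± 0.27, adjusted p = 0.00537). The L18 replicates of both genes lay below every WT replicate. Chitin-binding proteins of the hevein kind had 2 of 6 called lower and none higher. Ccrd_005812 had 34.1, 25.2 and 59.6 normalized counts in L18 callus, against 2123, 1506 and 1922 in WT callus (-5.53 ± 0.28, adjusted p = 2.53e-08), with a median of -0.87 over its neighbours. Bet v 1 proteins, the pollen allergen and PR-10 fold, split into 4 higher and 3 lower of 12, with 2 higher without WT replicate 2. Ccrd_016237 had 122, 62.1 and 71.0 normalized counts in L18 callus, against 6670, 9980 and 8591 in WT callus (-6.62 ± 0.48, adjusted p = 5.26e-07). Its relative Ccrd_001435 had 6900, 8601 and 8657 normalized counts in L18 callus, against 3527, 2583 and 2823 in WT callus (1.44 ± 0.18, adjusted p = 5.73e-05).

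Small heat shock proteins and glutathione transferases were lower in L18 where they were called. Small heat shock proteins, chaperones that hold unfolded proteins, had 4 of 10 called lower and none higher. Ccrd_023749 had 98.7, 66.3 and 83.3 normalized counts in L18 callus, against 277.2, 334.3 and 337 in WT callus (-1.93 ± 0.21, adjusted p = 1.71e-05). Glutathione transferases, detoxifying enzymes grouped after their values were seen, had 4 of 6 called lower and none higher. Ccrd_017720 had 1819, 2570 and 1510 normalized counts in L18 callus, against 8672, 6752 and 7184 in WT callus (-1.94 ± 0.24, adjusted p = 5.76e-05). Dehydrins protect cells during water loss, and 2 of them moved apart. Ccrd_004741 had 121.1, 96.8 and 106 normalized counts in L18 callus, against 3.68, 1.97 and 0 in WT callus, at least 32.9-fold higher (adjusted p = 6.13e-07). Ccrd_012817 had 2.69, 4.21 and 0.95 normalized counts in L18 callus, against 121.4, 115.4 and 62.0 in WT callus (-5.21 ± 0.64, adjusted p = 5.73e-05).

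A pair of SPX genes, grouped after their values were seen with other genes of the phosphate response, were higher in L18. SPX domain proteins sense cellular phosphate through inositol pyrophosphates, and stand-alone SPX genes are known in Arabidopsis and rice to rise on phosphate starvation. Ccrd_006772 had 2260, 498.5 and 609.4 normalized counts in L18 callus, against 12.3, 47.3 and 59.9 in WT callus (4.79 ± 0.60, adjusted p = 6.27e-05). Ccrd_020420 had 3028, 1213 and 1137 normalized counts in L18 callus, against 38.0, 150.9 and 165.8 in WT callus (3.91 ± 0.53, adjusted p = 1.25e-04). L18 replicate 1 was highest and WT replicate 1 lowest at both genes, and the groups did not overlap. Purple acid phosphatases release phosphate from organic esters, and 3 of 5 were called higher, where 24.7% of all described genes were called higher. Ccrd_021861 had 752.8, 239.8 and 292.4 normalized counts in L18 callus, against 47.8, 63.1 and 86.7 in WT callus (2.70 ± 0.49, adjusted p = 0.0011). Ccrd_007024 had 1472, 893 and 822.3 normalized counts in L18 callus, against 161.9, 227.8 and 262.1 in WT callus (2.29 ± 0.25, adjusted p = 1.94e-05). Ccrd_000177, named after its values were seen, rose by 0.93 (adjusted p = 0.00333) within neighbours whose median was 0.62, and was not called when centred on them (0.31, adjusted p = 0.304). Ccrd_004745 went the other way, with a log2 fold change of -0.81 (adjusted p = 0.0514). It was called lower without a filter on low counts (adjusted p = 0.0425), by DESeq2 (0.0295), by edgeR's exact test (0.0238), when centred on neighbours (0.0455), and without WT replicate 3 (0.0259) or L18 replicate 2 (0.0399).

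The genes of primary metabolism given here came mostly from lists chosen as lower on these libraries, and called genes of ribosomal proteins were mostly lower. Of the study's core genes, chosen on these libraries, all 9 of glycolysis and all 5 of the tricarboxylic acid cycle were called lower, as the choice had fixed, with median log2 fold changes of -0.68 and -0.78. Their neighbours had medians of -0.36 and -0.38, and with fold changes centred on neighbouring genes 5 of the 9 and 3 of the 5 were called. The tricarboxylic acid count was also 3 without WT replicate 2 or L18 replicate 1. Ccrd_005119, a succinate dehydrogenase named after its values were seen, had 2312, 2430 and 1980 normalized counts in L18 callus, against 7236, 5207 and 4148 in WT callus (-1.30 ± 0.19, adjusted p = 2.10e-04). One gene of glycolysis outside that list moved up. Ccrd_014450, a phosphopyruvate hydratase (enolase), had 44342, 24327 and 30094 normalized counts in L18 callus, against 10756, 14659 and 14985 in WT callus (1.29 ± 0.23, adjusted p = 0.00105). Ribosomal proteins, grouped after their values were seen, had 13 of 25 described genes called lower and 1 higher, with 8 lower without WT replicate 1 or L18 replicate 1 and 4 lower when centred on neighbours. Ccrd_016909, with the L7Ae domain, had 1882, 2401 and 1640 normalized counts in L18 callus, against 7969, 5860 and 4904 in WT callus (-1.66 ± 0.19, adjusted p = 3.53e-05). The 1 that rose, Ccrd_016709 (ribosomal protein L29), had 13030, 15235 and 14862 normalized counts in L18 callus, against 1721, 1433 and 1271 in WT callus (3.29 ± 0.20, adjusted p = 1.42e-07).

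The callus label was checked with markers of photosynthetic and surface cells. Chlorophyll a-b binding proteins, the light-harvesting antennae, summed to 2383 to 2903 normalized counts in L18 callus and 624.7 to 879.3 in WT callus over 9 described genes, 2 called higher and 3 lower. The 2 that rose made up most of the L18 sum. Ccrd_006280 had 1271, 1132 and 1190 normalized counts in L18 callus, against 20.9, 9.86 and 10.7 in WT callus (6.46 ± 0.25, adjusted p = 3.77e-09). Ccrd_006285 had 1107, 847.7 and 838.4 normalized counts in L18 callus, against 153.3, 81.9 and 49.2 in WT callus (3.31 ± 0.32, adjusted p = 6.37e-06). The 3 described genes of 3-ketoacyl-CoA synthase, which extends the fatty acids of cuticular wax, were at or near 0, with sums of 0 to 2.10 in L18 callus and 0 to 2.14 in WT callus. CASP-like proteins, relatives of the proteins that form the Casparian strip, had 6 of 18 called higher and 3 lower, with sums of 2548 to 2609 in L18 callus and 2548 to 3143 in WT callus. The part of these markers in the other differences was not tested.

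The 10 largest rises and the 10 largest falls were taken among called, described genes with non-overlapping replicates and at least 100 normalized counts in the higher group, and several are given above. Ccrd_001240, an oligopeptide transporter of the OPT superfamily, had 326.6, 195.6 and 357.7 normalized counts in L18 callus and 0 in every WT replicate, at least 89.4-fold higher (adjusted p = 4.77e-07). Ccrd_006831, a glycoside hydrolase, had 797.6, 91.5 and 1590 normalized counts in L18 callus, against 2.45, 0 and 0 in WT callus, at least 252-fold higher (adjusted p = 3.90e-05). L18 replicate 2 was the lowest of the 3 and still above every WT replicate. Ccrd_014976, a bHLH transcription factor, had 294.3, 185.1 and 329.3 normalized counts in L18 callus, against 1.23, 0.99 and 1.07 in WT callus, which was exactly 1 count in each WT library and at least 82.1-fold higher in L18 (adjusted p = 2.22e-07). Ccrd_023568, a UDP-glucosyltransferase that would move glucose to small molecules, had 724.1, 594.3 and 543.2 normalized counts in L18 callus, against 6.13, 0.99 and 10.7 in WT callus (6.71 ± 0.45, adjusted p = 2.89e-07). Ccrd_007379, a TF-B3 domain protein, and Ccrd_007902, with a tubulin-binding cofactor C domain, were at 3 counts or fewer in each WT library. They were at least 51.2-fold (adjusted p = 1.60e-07) and 37.5-fold higher (adjusted p = 2.02e-06) in L18.

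Among the falls, Ccrd_025377, a sulfotransferase, had 0, 0 and 0.95 normalized counts in L18 callus, against 647.5, 550.3 and 898.6 in WT callus, at least 241-fold lower (adjusted p = 4.77e-07). Ccrd_024179, a nicotianamine synthase, which makes a metal chelator for iron and zinc transport, had 2.69, 1.05 and 0.95 normalized counts in L18 callus, against 983.5, 845.2 and 614 in WT callus, at least 281-fold lower (adjusted p = 2.17e-08). Both were therefore nearly silent in L18 and well counted in WT. Ccrd_001186, an ALOG domain protein of the kind that shapes organ boundaries, had 0.90, 0 and 3.79 normalized counts in L18 callus, against 1080, 784.1 and 742.4 in WT callus (-8.98 ± 0.56, adjusted p = 1.46e-07). Ccrd_008518, a GDSL lipase, had 4.49, 4.21 and 0.95 normalized counts in L18 callus, against 643.8, 489.2 and 538.1 in WT callus (-7.39 ± 0.48, adjusted p = 2.02e-07). Ccrd_018562, a 1-deoxy-D-xylulose-5-phosphate synthase, belongs to the family that opens the plastidial isoprenoid pathway. It had 0.90, 0 and 0 normalized counts in L18 callus, against 104.2, 161.7 and 169 in WT callus, at least 50.1-fold lower (adjusted p = 1.79e-06). Ccrd_020183, with a conserved site of ADP-glucose pyrophosphorylase, the committed enzyme of starch synthesis, had 0, 1.05 and 0.95 normalized counts in L18 callus, against 131.2, 126.2 and 113.4 in WT callus, at least 42.7-fold lower (adjusted p = 2.49e-07).

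Cytochrome P450s, monooxygenases of many pathways, had 25 of 59 described members called higher and 13 lower, and they held some of the largest changes. Ccrd_022806 had 4633, 4743 and 5948 normalized counts in L18 callus, against 152.1, 108.5 and 104.8 in WT callus (5.39 ± 0.19, adjusted p = 1.69e-09). Ccrd_026735 had 8.08, 12.6 and 7.57 normalized counts in L18 callus, against 873.2, 1118 and 1298 in WT callus (-6.86 ± 0.33, adjusted p = 8.65e-08). Asteraceae are known for sesquiterpene lactones, and costunolide synthase is the P450 that closes the lactone ring in chicory and relatives. Ccrd_008661, so described, had 119.3, 301.9 and 230.9 normalized counts in L18 callus, against 3.68, 2.96 and 2.14 in WT callus, at least 66.2-fold higher (adjusted p = 1.79e-06). The oxylipin family of lipoxygenases held 1 call among 6 genes. Ccrd_026639 had 16.2, 14.7 and 39.7 normalized counts in L18 callus, against 669.6, 879.7 and 746.7 in WT callus (-5.01 ± 0.38, adjusted p = 7.54e-07).

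At most 3 counts in every WT library were found at 564 of the genes tested, of which 194 were called higher in L18. The opposite, at most 3 counts in every L18 library, was found at 402 genes, of which 115 were called lower. Over all genes tested 12.5% were called higher and 12.8% lower. Genes at this floor in a group had passed the filter only through a sample of another group. Their calls could go in hardly any other direction, so these counts cannot be read against those shares. A level of 3 counts corresponds to 2.69 to 3.68 normalized counts in these libraries, and fold changes against such a group are given above only as bounds.

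More genes were called between L18 and either other line than between L18 and WT. Of the 20024 genes 6608 (33.0%) were called against L1 and 6144 (30.7%) against L24. Both comparisons called the same gene in the same direction at 3463 (17.3%), with L18 higher at 1837 (9.17%) and lower at 1626 (8.12%). The comparisons share the L18 libraries, so their calls are not independent of each other. Library distances of L18 were 155.0 to 202.3 to L1 and 150.1 to 184.3 to L24, beside 153.9 to 166.1 to WT.

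The called phenylpropanoid genes also had lower means in L1 and L24 than in WT callus, but L18 differed from the other lines in both directions. Described genes had been called in L1 against the same WT libraries, so a difference there was built into the choice. For the core genes among them the fall in every line was built in as well. Of the 12 described 4CL genes 5 were called higher and 5 lower in L18 than L1, and 5 higher and 4 lower than L24. The 4 CCoAOMT genes gave 2 higher and 1 lower against L1, and 2 higher and 2 lower against L24. PAL gene Ccrd_007512 averaged 10719 normalized counts in L18, 4864 in L1 and 6514 in L24 callus, and L18 was higher than L1 by 1.14 ± 0.23 (SE, adjusted p = 0.00163) and than L24 by 0.72 ± 0.23 (adjusted p = 0.027) on the log2 scale. HCT gene Ccrd_015561 was higher in L18 than in L1 by 0.90 (adjusted p = 0.0205) and than in L24 by 0.98 (adjusted p = 0.015). CCoAOMT gene Ccrd_019031 was higher in L18 by 1.16 (adjusted p = 4.44e-04) against L1 and by 0.56 (adjusted p = 0.0413) against L24. 4CL gene Ccrd_018719 was higher by 1.44 (adjusted p = 2.52e-04) and 1.41 (adjusted p = 4.03e-04). In the other direction, 4CL gene Ccrd_015556 was lower in L18 than L1 (log2 difference -0.49 ± 0.18, adjusted p = 0.0474), with a difference of -0.05 to L24 (adjusted p = 0.874). CCoAOMT gene Ccrd_012615 was lower in L18 than L24 (-0.59 ± 0.20, adjusted p = 0.0414), with a difference of 0.08 to L1 (adjusted p = 0.812). The C4H gene Ccrd_010165 had differences of 0.49 ± 0.19 (adjusted p = 0.0561) to L1 and 0.37 ± 0.18 (adjusted p = 0.152) to L24.

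The XTH gene Ccrd_000418 was highest in L18, where its mean of 70992 normalized counts compared with 8153 in L1 and 24851 in L24 callus (log2 differences 3.12 ± 0.32, adjusted p = 8.45e-06, and 1.51 ± 0.30, adjusted p = 0.00202). Pectate lyase gene Ccrd_012421, the lipid-transfer gene Ccrd_018445 and the defensin-like Ccrd_010897 were also higher in L18 than in either line, by 2.60 to 4.45, 2.80 to 3.29 and 3.86 to 4.03 on the log2 scale, with adjusted p values between 3.05e-07 and 3.16e-05. NAC gene Ccrd_010627 averaged 385.5 normalized counts in L18 callus, against 49.2 in L1 and 62.2 in L24 callus. Some families, picked after their counts were seen, differed from the other lines at most members. Pectate lyases were called higher in L18 than L1 at 7 of 8 genes (30.9% of the described genes and 16.9% over all genes) and than L24 at all 8 (26.5% and 16.4%). Small heat shock proteins were called lower in L18 than L1 at 8 of 10 (35.2% of the described genes and 16.1% over all genes) and than L24 at 9 of 10 (22.6% and 14.3%). Lipoxygenases were called lower in L18 at 5 of 6 against L1 and at 4 of 6 against L24, beside the same shares.

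Some genes set L18 apart from L1 and L24 by the largest margins. Ccrd_006772, the SPX gene above, averaged 1123 normalized counts in L18 callus, while L1 libraries had 0, 0 and 1.25 and L24 libraries 4.07, 1.11 and 1.06. The second SPX gene, Ccrd_020420, had 9.09, 5.78 and 25.1 normalized counts in L1 and 29.5, 14.4 and 8.47 in L24 callus, and L18 was higher by 7.20 ± 0.67 (adjusted p = 3.73e-06) and 6.66 ± 0.65 (adjusted p = 7.18e-06). Ccrd_009203, a transporter of the major facilitator superfamily (MFS), had 1098, 373.4 and 307.5 normalized counts in L18 callus, against 7.36, 28.6 and 16.1 in WT callus, and was at 3 counts or fewer in every L1 and L24 library. That puts L18 at least 206-fold above L1 and 186-fold above L24. Ccrd_017603, an amino acid transporter by its domain, had 405.5, 368.1 and 208.2 normalized counts in L18 callus, against 2.45, 2.96 and 17.1 in WT callus (5.41 ± 0.61, adjusted p = 5.73e-05), and 0 in every L1 library. Both genes were thus raised in L18 over WT and over the other lines alike.

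A different pattern was a level shared by L18 and WT. Ccrd_016505, a glucan endo-1,3-beta-glucosidase that degrades callose, had 1401, 1592 and 675.7 normalized counts in L18 callus, against 1634, 1320 and 1119 in WT callus, and was not called (-0.15 ± 0.26, adjusted p = 0.717). L1 and L24 libraries held at most 3 counts of it, at least 424-fold and 384-fold below L18. Ccrd_004322, a bHLH factor, had 0 counts in all L18 and WT libraries and averaged 173.9 normalized counts in L1 and 37.4 in L24 callus. Ccrd_022172, a protein kinase, had 6.28, 3.16 and 2.84 normalized counts in L18 callus, against 2.45, 5.92 and 6.42 in WT callus, and 281.0 to 508.4 in the libraries of L1 and L24.

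**Figure D4:**
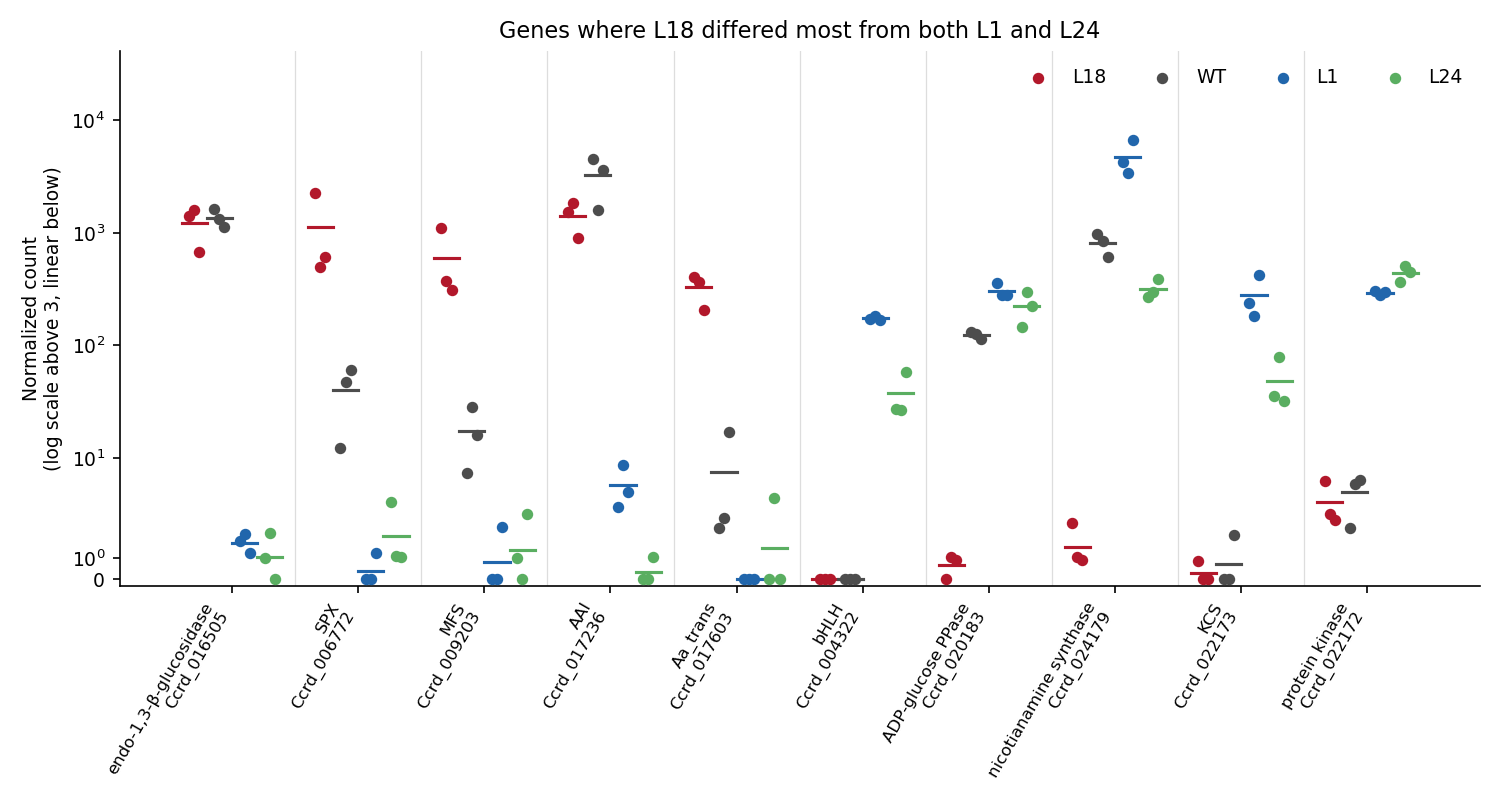
Normalized counts (log scale above 3, linear below) of the 10 genes at which L18 differed most from both L1 and L24, for L18 (red), WT (grey), L1 (blue) and L24 (green), with each point a replicate and each bar the mean of 3. At Ccrd_016505 and Ccrd_004322 the red L18 points lie with the grey WT points, whereas at Ccrd_006772 they lie above all other groups.

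Differences also ran in blocks along the gene numbering, which follows the scaffolds of the CcrdV1 assembly. The 13377 genes with a mean log2 CPM above 3 were split by identifier number into 133 consecutive windows of 100, a step chosen after the data were seen. The median log2 difference lay within 0.1 of 0 in 81 windows, above 0.25 in 6 and below -0.25 in 18. The windows formed a few long runs. Genes Ccrd_000003 to Ccrd_000565 were raised, with window medians of 0.43 to 0.64 in L18, and 191 of 444 tested genes were called higher and 29 lower. Genes Ccrd_005029 to Ccrd_006021 were lowered, with medians of -0.71 to -0.34, and 272 of 769 were called lower and 42 higher. The next stretch, Ccrd_006022 to Ccrd_006405, was raised again (0.27 to 0.29, with 66 of 290 called higher and 17 lower).

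The longest run, Ccrd_008414 to Ccrd_010297, covered 9 windows on 230 scaffolds and was lowered by 0.29 to 0.59, with 467 of 1410 genes called lower and 69 higher. C4H gene Ccrd_010165 lies inside it, and its own log2 fold change of -2.06 exceeded the local median of -0.36. Ccrd_016983 to Ccrd_017655 was lowered as well (-0.49 to -0.36, with 153 of 435 called lower and 37 higher). Together the lowered runs held 940 of the genes called lower (36.6%) and 154 of those called higher (6.15%) among 2744 of the 20024 genes tested. The raised runs held 307 genes called higher (12.3%) and 68 called lower (2.65%) among 895. Runs were picked by the window medians of these same fold changes, so more calls in a run's own direction were built into that choice. The medians of L1 and L24 against WT use the same WT libraries, so they are not independent of those of L18. They were 0.37 to 0.67 and 0.44 to 0.60 in the first run, and -0.31 to -0.46 and -0.31 to -0.42 in Ccrd_016983 to Ccrd_017655. In the longest run they ranged from -0.96 to 0.00 in L1 and from -0.56 to 0.10 in L24, and its first 3 windows (Ccrd_008414 to Ccrd_009065, -0.38 to -0.29 in L18) were at -0.07 to 0.00 in L1 and 0.05 to 0.10 in L24. Window Ccrd_013984 to Ccrd_014128 was lowered in L18 (-0.40) and L24 (-0.44) and was at 0.02 in L1.

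**Figure D5:**
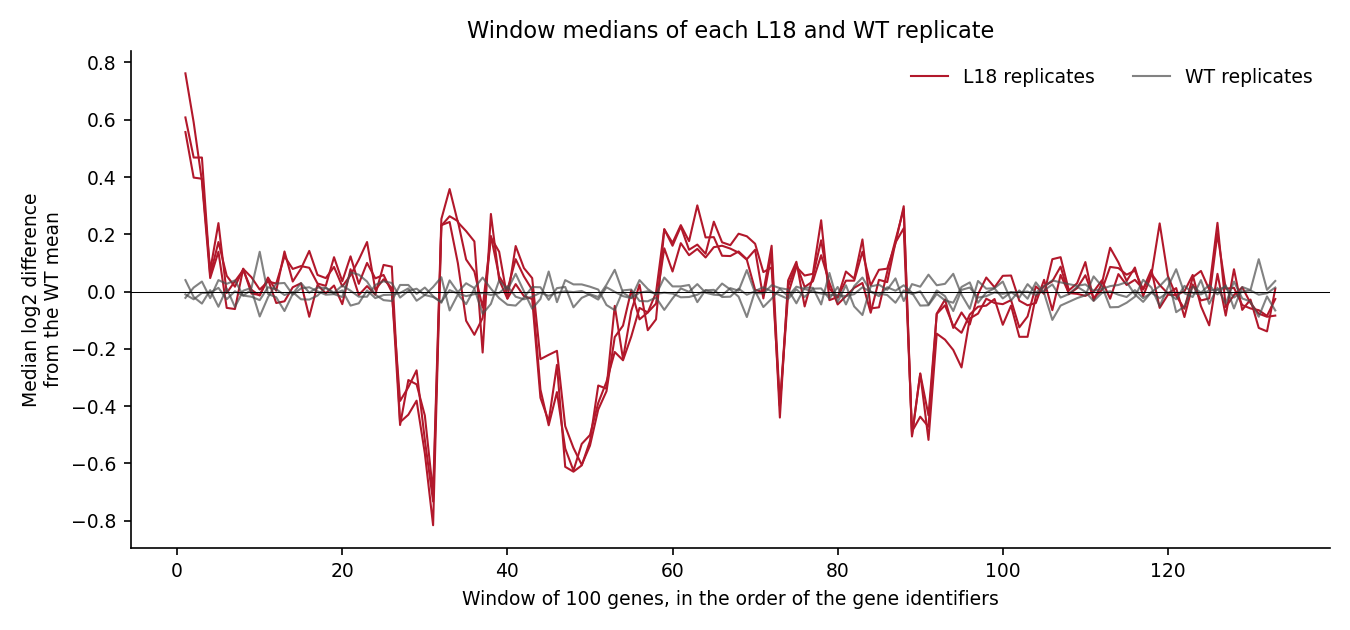
Median log2 difference from the WT mean (vertical axis) in 133 consecutive windows of 100 genes sorted by identifier number (horizontal axis), with 1 line per L18 replicate (red) and per WT replicate (grey). The L18 lines leave the WT lines together in the raised run at the left edge (medians of 0.43 to 0.64) and in the lowered runs (down to -0.71), and 81 windows lie within 0.1 of 0.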

How the data were processed

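Per the labels and the study's methods, total RNA of 12 callus samples was made into TruSeq libraries, which do not mark strand, and sequenced on an Illumina NovaSeq instrument. The authors trimmed reads with BBDuk (minimum length 35, quality 35) and aligned them with STAR to the CcrdV1 genome; the counter is not given in the sources used here. The deposited table of raw counts holds whole read counts per gene, not normalized. The deposited FPKM table holds the authors' fragments per kilobase of exon, scaled to library size, and served alternatives only.

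Counts were analysed in R 4.3.3 with edgeR 4.0.16: TMM factors (0.854 to 1.04), 1 quasi-likelihood fit over all 12 samples, contrasts of L18 with WT, L1 and L24, and Benjamini-Hochberg adjustment at 0.05. SE is the log2 fold change divided by the square root of F. Genes were kept where any sample passed 10.5 normalized counts, the level at which the Jaccard index between replicates was largest (0.961), which left 20024 of 23390 genes with a count. Bounds use 3 counts as the floor, as the mean over a group's libraries, and cover counting error only. Reads of overlapping or antisense genes, and of near-identical family members, cannot be told apart.

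Gene names came from descriptions in the study's lists (2633 of 3630 identifiers). The members and lists were chosen with earlier results of these data known. Named genes were those the paper names, the 10 largest rises and falls and the 5 largest on and off genes with a description, the 5 on each side that differed most from both other lines, up to 4 per family by level and change, and the 10 most counted in L18. The genes of off and on kind are those at 3 counts or fewer in one group. Alternatives were limma 3.58.1 on log2(FPKM + 1), DESeq2 1.42.0, other filters, size factors and tests, a replicate block, leaving out each replicate, and, chosen after seeing the data, fold changes centred on the 101 nearest genes in identifier order. The scripts were tested on simulated data. Tables and plots used Python 3.11.15, pandas 2.3.3 and matplotlib 3.10.9.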

Additional observations from a re-analysis of the deposited data

Results flagged for a closer look

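L18 differed from both L1 and L24 in the same direction at 3463 genes by edgeR's quasi-likelihood test. The smaller of the 2 fitted log2 differences to the other lines was 9.29 at Ccrd_016505 (endo-1,3-beta-glucosidase), 8.97 at Ccrd_006772 (SPX), 8.59 at Ccrd_009203 (MFS transporter), 7.85 at Ccrd_017236 (AAI domain, a lipid-transfer relative) and 7.73 at Ccrd_017603 (amino acid transporter). On the lower side it was -8.23 at Ccrd_004322 (bHLH), -8.19 at Ccrd_020183 (ADP-glucose pyrophosphorylase site), -7.53 at Ccrd_024179 (nicotianamine synthase), -6.77 at Ccrd_022173 (3-ketoacyl-CoA synthase) and -6.10 at Ccrd_022172 (protein kinase). All of these except Ccrd_022172 have a group at 3 counts or fewer, where a fitted difference depends on the prior count.

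Ccrd_024179 averaged 4742 normalized counts in L1 and 318.4 in L24 callus, so L18 was at least 1638-fold below L1 and 110-fold below L24. Ccrd_020183 was at least 106-fold lower in L18 than L1 and 77.2-fold lower than L24, and Ccrd_004322 at least 60.1-fold and 12.9-fold lower. Ccrd_022173 was at 3 counts or fewer in all L18 and WT libraries and at least 97.0-fold lower in L18 than L1 and 16.8-fold lower than L24. Ccrd_017236 had 1518, 1851 and 900.9 normalized counts in L18 callus, against 4495, 1579 and 3616 in WT callus, where the groups overlapped. Its call against WT (-1.18 ± 0.33, adjusted p = 0.0164) ended with WT replicate 1 or 3 or L18 replicate 3 left out (adjusted p = 0.0504 to 0.0917). L24 libraries held 0, 0 and 1.06 normalized counts of it, at least 447-fold below L18.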

How the results depend on the processing

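The number of genes called between L18 and WT was 5071 and stayed within 1.5 times of that under each alternative run, between 3559 and 5719. Leaving out 1 replicate gave 3559 (without WT replicate 2) to 5021 calls. The DESeq2 Wald test gave 5719, a fit on the 6 libraries alone 4463, and limma on log2(FPKM + 1) 4863. No alternative called a gene in the direction opposite to its main call, and between 69.5% and 99.6% of the 5071 calls were shared. Centring on neighbouring genes, chosen after seeing the data, gave 4265 calls, of which 3807 were shared. Genes that set L18 apart from both lines numbered 2568 to 3835, against 3463.

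The replicate numbers are shared by the labels only. Deviations of same-numbered L18 and WT samples correlated at -0.095, -0.105 and 0.149, so the numbers were not taken as pairs, and a fit with the replicate number as a block called 4733 genes. L18 replicate 3 alone deviated most closely with its own number in WT.

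Among the genes named here, directions turned only at genes that were not called against WT. Ccrd_012208 (-0.06) was at 0.04 in the 3 limma settings and between -0.19 and 0.15 with 1 replicate left out. Ccrd_016505 (-0.15) lay between -0.39 and 0.14, and Ccrd_022173 (-0.93) between -2.75 and 1.84, with 1 replicate left out. The cause of these changes was not tested. With 3 libraries per group, changes below the spread between libraries could not be detected, and genes under about 10 counts rest on few reads.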
